A study of Homo sapiens with 6 samples.

Results

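The genes of the proteasome and the immunoproteasome were followed in RT4 cells after depletion of *LEADR*, the spliced transcript of the miR-205 host gene *MIR205HG*. Members were all rows annotated as protein-coding whose symbol was PSM followed by A, B, C, D, E, F or G and a number. This gave 50 rows with 48 symbols of the 57905 rows in the table, since *PSMA1* and *PSMA2* each had a second row under the same symbol. RT4 is an established line of human bladder cancer cells, of the papillary kind that has not grown into the muscle. LEADR-KD cells received the *LEADR* siRNA and Scramble cells a universal negative control siRNA, each at 100 pmol for 48 h with the same lipid reagent. Poly(A) RNA was sequenced in 3 libraries per group. All libraries came from 1 line with 1 siRNA per group, and the study's methods call the samples biological replicates. The labels do not say whether they were separate cultures, and each p-value rests on the spread between them.

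The proteasome degrades proteins that carry ubiquitin chains. Its core particle is a barrel of alpha rings, which form the gate, and beta rings, in which *PSMB5*, *PSMB6* and *PSMB7* cut the peptide chain. A regulatory particle with a ring of ATPases (PSMC) and a set of non-ATPase subunits (PSMD) captures, unfolds and feeds the substrate. Under interferon, many cells make the alternative catalytic subunits *PSMB8*, *PSMB9* and *PSMB10*, which take the places of *PSMB5*, *PSMB6* and *PSMB7*, and the PA28 cap of *PSME1* and *PSME2*. This form, the immunoproteasome, is known for shaping the peptides that class I HLA molecules present.

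The libraries held 15706033 to 18960822 counts. *MIR205HG*, the targeted gene, had 1.98, 3.21 and 1.59 FPKM (fragments per kilobase of exon, scaled for library depth) in LEADR-KD and 8.30, 4.78 and 5.69 FPKM in Scramble. Its log2 fold change was -1.47 (edgeR, adjusted p = 0.00180), so it was lower in all 3 LEADR-KD libraries. Of 17 urothelial markers, 15 averaged at least 1 FPKM, while *KRT5* and *KRT20* did not. Genes of the mitochondrial genome took 10.8%, 5.73% and 4.79% of the counts in LEADR-KD and 11.9%, 4.57% and 3.06% in Scramble, so that the library numbered 1 stood apart in both groups. The members together took 0.674% to 0.766% of the counts in LEADR-KD and 0.637% to 0.740% in Scramble.

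The *LEADR* siRNA is shown because some of the members hold sites for it. The strand given in the labels reads in the same sense as *MIR205HG* and occurs in 13 of its 17 annotated isoforms, so the second strand printed here, its complement, is the one that pairs with the transcript. Capitals mark bases 2 to 8 of each strand, the seed:
*LEADR* siRNA, strand as listed: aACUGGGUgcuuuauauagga
*LEADR* siRNA, complement: uCCUAUAUaaagcacccaguu

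Most proteasome genes changed little. Of the 50 rows, 46 passed the filter on low counts and were tested. *PSMA8*, an alpha subunit of the testis, and *PSMB11*, a catalytic subunit of the thymus, had 0 counts in every library, as did the second row of *PSMA1*. The second row of *PSMA2* had 0 to 2 counts. Among the 46 tested members, 6 were higher in LEADR-KD at an adjusted p under 0.05, namely *PSMG1*, *PSMB9*, *PSMB2*, *PSMC3*, *PSMC1* and *PSME3*. This was 13.0% of the members, against 12.2% of all 14178 genes tested. Another 4 were lower, namely *PSME4*, *PSMB7*, *PSMA6* and *PSMB5*, which was 8.70% of the members against 12.1% of all genes tested. Both shares lay near those of all genes. The remaining 36 members did not pass the test.

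The tested members leaned to small positive values. Over all 46, called or not, 33 log2 fold changes were above 0 and 13 below, with a median of 0.12. Over all genes tested, 6889 were above 0 and 7289 below, with a median of -0.01. The values of the groups did not overlap for 14 members that were higher in LEADR-KD (30.4%, against 19.9% of all genes) and for 5 that were lower (10.9%, against 19.9%). Changes were smaller in size than elsewhere, with a median absolute log2 fold change of 0.155 for members, 0.250 for all genes tested and 0.194 for genes with a mean of at least 5 FPKM. Only *PSMG1* passed a log2 fold change of 1.

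**Figure D1:**
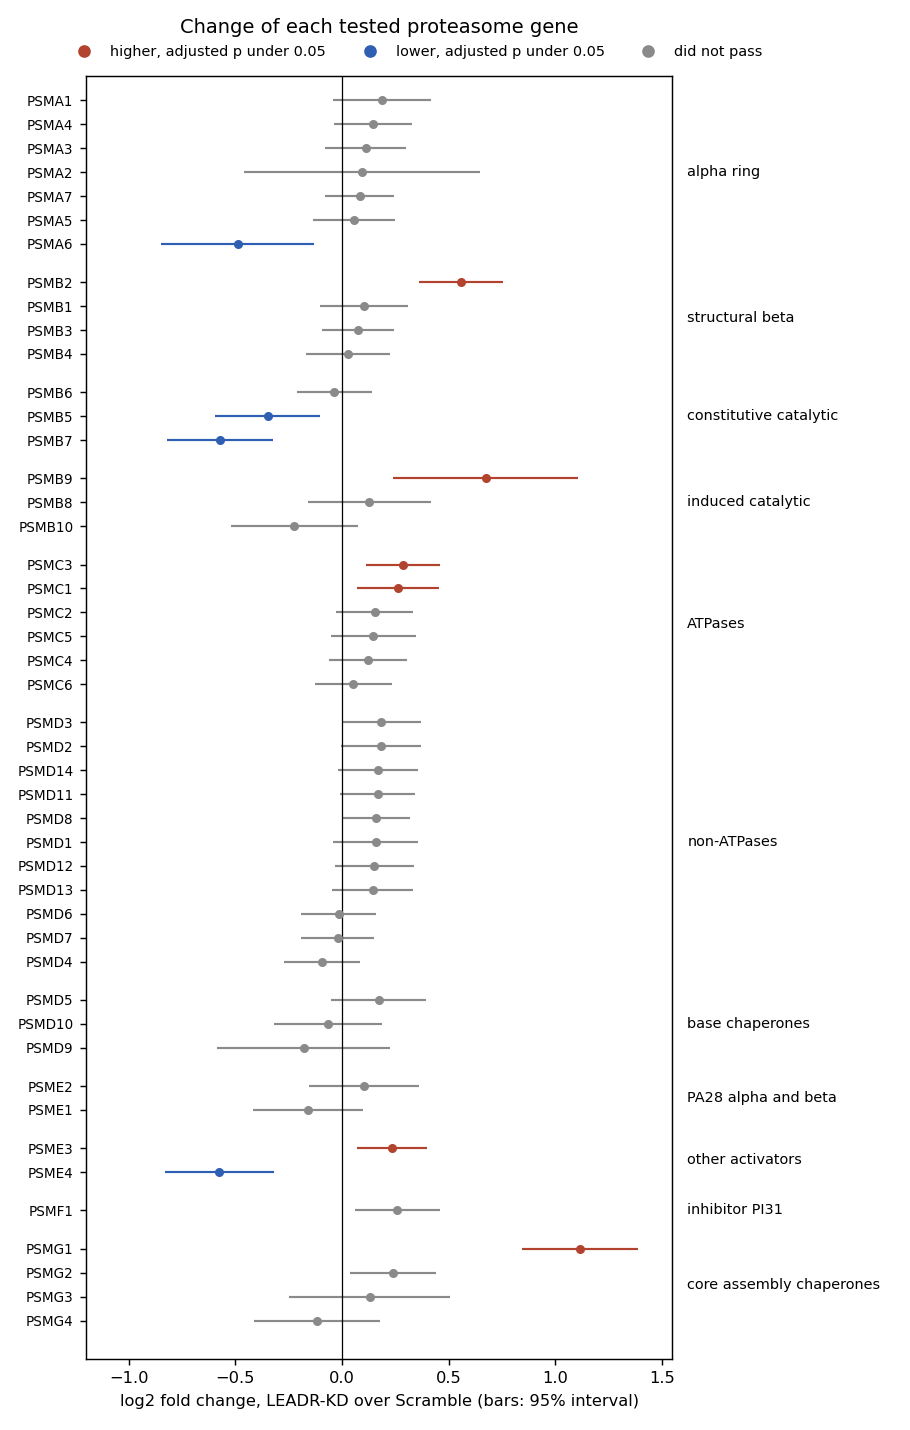
Log2 fold change of the 46 tested members, LEADR-KD over Scramble, ordered within each class of subunit; points are edgeR estimates and bars their 95% intervals. *PSMG1* lies farthest to the right at 1.12 and *PSME4* farthest to the left at -0.58, and all 6 ATPases lie above 0.

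Of the 3 constitutive catalytic subunits, 2 were lower (12.1% of all genes tested were), though only the call of *PSMB7* held under every alternative. *PSMB7*, the trypsin-like subunit beta2, had 42.5, 30.7 and 36.5 FPKM in LEADR-KD and 58.0, 54.0 and 50.0 FPKM in Scramble. Every LEADR-KD library lay below every Scramble library. The log2 fold change was -0.57 (SE 0.11, adjusted p = 0.00363), a fold of 0.672, and the call held with any 1 library left out. *PSMB5*, the chymotrypsin-like subunit beta5 and a main target of proteasome inhibitor drugs, had 66.5, 80.1 and 81.0 FPKM in LEADR-KD and 82.7, 97.2 and 108 FPKM in Scramble. The groups came close to each other, since the highest LEADR-KD library was just below Scramble 1. *PSMB5* was lower with a log2 fold change of -0.35 (SE 0.11, adjusted p = 0.0411). That call rested on nearly every library, as it was lost without LEADR-KD 1, 2 or 3 (adjusted p = 0.122, 0.0763 and 0.0557) and without Scramble 2 or 3 (0.105 and 0.153).

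*PSMB6*, the caspase-like subunit beta1, had 74.5, 74.5 and 75.1 FPKM in LEADR-KD and 71.5, 75.4 and 81.2 FPKM in Scramble. The LEADR-KD libraries fell inside the range of the Scramble libraries. Its log2 fold change of -0.04 (95% interval -0.21 to 0.14) did not pass the test (adjusted p = 0.786).

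The induced subunits did not move as a set. *PSMB9*, the counterpart of *PSMB6*, was higher, while *PSMB8*, *PSMB10*, *PSME1* and *PSME2* did not pass the test. *PSMB9* had 5.19, 6.23 and 8.13 FPKM in LEADR-KD and 3.91, 3.21 and 5.07 FPKM in Scramble, from 254, 350 and 442 counts in LEADR-KD and 206, 194 and 264 counts in Scramble. The lowest LEADR-KD library lay just above the highest Scramble library. The log2 fold change was 0.67 (SE 0.20, adjusted p = 0.0284), a fold of 1.59. The call was lost without LEADR-KD 2 or 3 (adjusted p = 0.0692 and 0.119) and without Scramble 1 or 2 (0.0729 and 0.109).

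*PSMB8*, the counterpart of *PSMB5*, had 25.1, 25.3 and 31.1 FPKM in LEADR-KD and 24.0, 20.9 and 29.1 FPKM in Scramble. The groups overlapped, and the log2 fold change was 0.13 (95% interval -0.16 to 0.42, adjusted p = 0.527). *PSMB10*, the counterpart of *PSMB7*, had 6.40, 5.55 and 6.83 FPKM in LEADR-KD and 7.21, 7.34 and 7.20 FPKM in Scramble. Here all LEADR-KD libraries were below the Scramble libraries, yet the log2 fold change of -0.22 (95% interval -0.52 to 0.08) did not pass the test (adjusted p = 0.272). The span of *PSMB10* shares 1516 bases with the protein-coding row *CTC-479C5.12* on the same strand, so its level is less certain. That row had at most 37 counts in a library.

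*PSME1* and *PSME2*, the alpha and beta chains of the PA28 cap, were among the abundant members. *PSME1* had 135, 129 and 162 FPKM in LEADR-KD and 141, 147 and 184 FPKM in Scramble (log2 fold change -0.16, 95% interval -0.42 to 0.10, adjusted p = 0.373). *PSME2* had 61.4, 58.8 and 75.0 FPKM in LEADR-KD and 56.6, 54.0 and 69.8 FPKM in Scramble (log2 fold change 0.10, 95% interval -0.15 to 0.36, adjusted p = 0.575). For both chains the groups overlapped. In *PSMB8*, *PSMB9*, *PSME1* and *PSME2* the highest library of each group was the one numbered 3, as it was for the interferon gene *ISG15*. *PSMB8*, *PSMB9* and the peptide transporter gene *TAP1* lie side by side on chromosome 6, where the span of *PSMB9* shares 8770 bases with *TAP1* and 568 bases with *PSMB8* on the opposite strand. No source used here says if reads were counted by strand, so those of the neighbours may have been mixed in these overlaps.

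**Figure D2:**
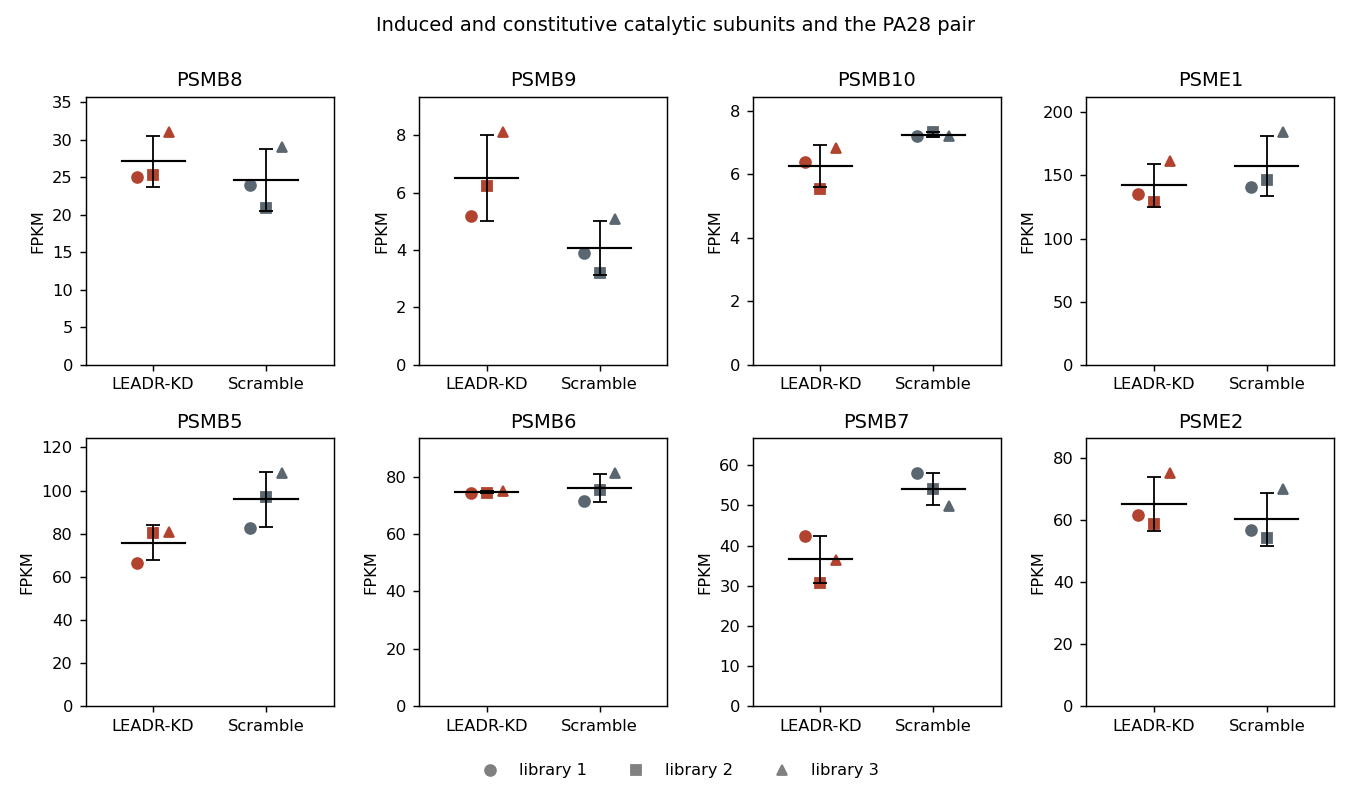
FPKM of the induced and constitutive catalytic subunits and of the PA28 pair in each library (points, shaped by library number), with the group mean (line) and SD (bar), LEADR-KD left of Scramble; each vertical axis starts at 0. *PSMB9* sits higher in LEADR-KD (5.19 to 8.13 against 3.21 to 5.07 FPKM), *PSMB5*, *PSMB7* and *PSMB10* sit lower in every LEADR-KD library, and the groups of the other 4 genes overlap.

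Leukocytes contain the induced subunits at rest, so their markers were read beside these genes. Of 12 leukocyte markers, 3 averaged at least 1 FPKM (*ITGAM*, *CD74* and *LCP1*), and *CD3E*, *LYZ* and *SPI1* were among those with 0 counts in every library. The summed level of the list was 143 to 155 FPKM in LEADR-KD and 108 to 117 FPKM in Scramble, and its part in the result for *PSMB9* was not tested. In bulk RNA, fewer cells of a type and less RNA per cell cannot be told apart.

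Within each library, the induced subunit was set against the subunit it replaces, a ratio that does not depend on how libraries are scaled. The ratio of *PSMB9* to *PSMB6* was 0.0696, 0.0836 and 0.108 in LEADR-KD and 0.0547, 0.0426 and 0.0625 in Scramble. For *PSMB8* to *PSMB5* it was 0.377, 0.316 and 0.384 in LEADR-KD and 0.291, 0.215 and 0.269 in Scramble. For *PSMB10* to *PSMB7* it was 0.151, 0.180 and 0.187 in LEADR-KD and 0.124, 0.136 and 0.144 in Scramble. In all 3 pairs every LEADR-KD library was above every Scramble library. The differences in log2 ratio were 0.70, 0.48 and 0.35 in that order, and each gave p = 0.10 in an exact two-sided permutation test over 3 against 3 libraries, which is the smallest p this design allows (0.10 after adjustment over the 3 ratios). The ratios do not say which of the paired genes moved: the log2 fold change was -0.22 for *PSMB10*, which did not pass the test, and -0.57 for *PSMB7*.

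**Figure D3:**
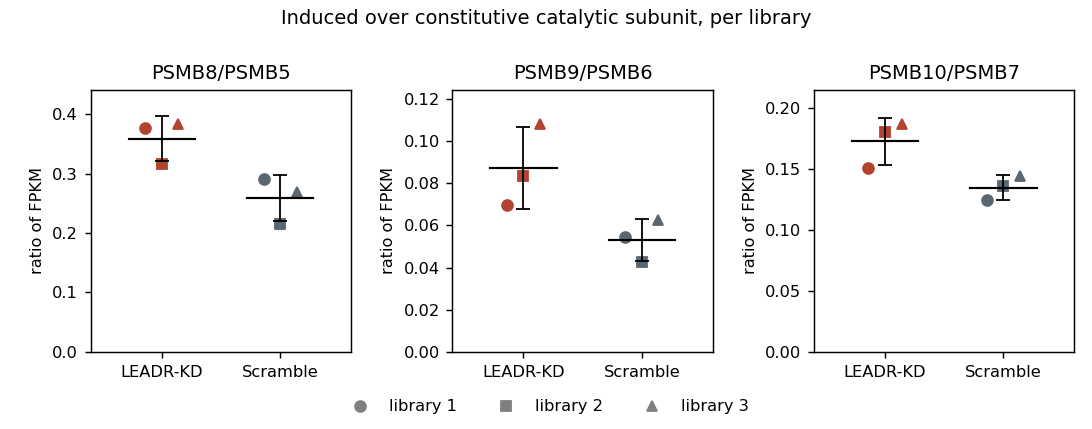
Ratio of the FPKM of each induced catalytic subunit to that of the constitutive subunit it replaces, in each library (points, shaped by library number), with group mean (line) and SD (bar), LEADR-KD left of Scramble; axes start at 0. LEADR-KD lies above Scramble in all 3 panels, by 0.48, 0.70 and 0.35 on the log2 scale from left to right.

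Promoter sequences were read to see what the 5 induced genes share apart from the level of their mRNA. RefSeq windows from 250 bases before to 50 bases after the start (GRCh38.p14) were found for 42 of the 48 symbols; *PSMA7*, *PSMB1*, *PSMB6*, *PSMB7*, *PSMD4* and *PSMG3* had none. The search took GAAANNGAAA on both strands, the core of the element that interferon regulatory factors bind. It occurred in 4 of the 5 induced genes and in 2 of 26 constitutive subunits (*PSMA4* and *PSMB4*), and *PSMG4* held it too. This was 16.7% of the members found, against 4.38% of 27305 genes with a window. The windows of 60 bases around the match are shown for the 4 induced genes, with the core in capitals, in either direction. None of these 4 passed the test. *PSMB9*, which passed here and in 10 of 16 alternatives, has no match in its window, and bases farther out were not searched. The part of the core in these results was not tested.
*PSMB8*, second of 2 start sites, chr6:32844017-32844076, minus strand: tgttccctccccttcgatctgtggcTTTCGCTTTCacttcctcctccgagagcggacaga
*PSMB10*, chr16:67936837-67936896, minus strand: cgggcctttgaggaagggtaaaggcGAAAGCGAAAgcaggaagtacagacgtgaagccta
*PSME1*, chr14:24136174-24136233, plus strand: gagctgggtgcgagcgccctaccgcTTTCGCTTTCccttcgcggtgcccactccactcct
*PSME2*, chr14:24146604-24146663, minus strand: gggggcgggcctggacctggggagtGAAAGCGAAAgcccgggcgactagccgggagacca

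The match began at -4 in *PSMB8*, -21 in *PSMB10*, 5 in *PSME1* and -28 in *PSME2*, counted from the first transcribed base as 0. Another pair of motifs was searched on both strands. TTCNNNGAA, to which STAT dimers bind, occurred in 1 of the 5 induced genes (*PSMB8*) and in 8 of the 42 members found, against 9.38% of genes with a window. TGACNNNGC, the core of the element for the NRF factors, occurred in 3 of the 5 (*PSMB9*, *PSME1* and *PSME2*) and in 15 of the 42, against 16.1%. A match is a description of these letters only.

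The alpha ring held no gene that was higher. *PSMA7*, its most abundant member by FPKM, had 155, 151 and 157 FPKM in LEADR-KD and 142, 145 and 148 FPKM in Scramble (log2 fold change 0.08, adjusted p = 0.468). *PSMA1* had the highest log2 fold change of the ring, 0.19, which did not pass the test (adjusted p = 0.230). *PSMA6* had 0.852, 0.988 and 0.986 FPKM in LEADR-KD and 1.30, 1.30 and 1.35 FPKM in Scramble, and was lower with a log2 fold change of -0.49 (adjusted p = 0.0489). No single library could be left out without loss of that call (adjusted p = 0.0856 to 0.130).

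*PSMA1*, *PSMA2* and *PSMA6* stood far below the other alpha genes, although the ring takes each alpha subunit in equal number. *PSMA2* had the lowest level, 0.523 to 0.869 FPKM in LEADR-KD and 0.612 to 0.764 FPKM in Scramble, and did not pass the test (log2 fold change 0.09, adjusted p = 0.828). Each of the 3 genes overlaps another protein-coding row on the same strand, which is *COPB1* and the second *PSMA1* row for *PSMA1*, the second *PSMA2* row for *PSMA2*, and *KIAA0391* over 38842 bases for *PSMA6*. Where such rows share exons, counting could leave reads unassigned. The part of this overlap in the low levels was not tested.

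Among the structural beta subunits *PSMB2* stood out. *PSMB2*, the beta4 subunit, had 67.0, 73.0 and 81.8 FPKM in LEADR-KD and 47.5, 50.2 and 52.0 FPKM in Scramble. Every LEADR-KD library was well above every Scramble library, and *PSMB2* was higher with a log2 fold change of 0.56 (SE 0.09, adjusted p = 0.00104), a fold of 1.47. The call held in each alternative tried. *PSMB1*, *PSMB3* and *PSMB4* had log2 fold changes of 0.10, 0.08 and 0.03 and did not pass the test. *PSMB3* had the highest level of the class at 127 to 138 FPKM in LEADR-KD and 120 to 131 FPKM in Scramble, and *PSMB1* the lowest.

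In the base of the regulatory particle, all 6 ATPase genes had positive log2 fold changes, 0.05 to 0.29, and 2 passed the test. *PSMC3* had 118, 107 and 109 FPKM in LEADR-KD and 94.9, 89.0 and 87.9 FPKM in Scramble (log2 fold change 0.29, SE 0.08, adjusted p = 0.0209). *PSMC1* had 89.7, 76.0 and 82.8 FPKM in LEADR-KD and 73.4, 68.0 and 64.2 FPKM in Scramble (log2 fold change 0.26, SE 0.09, adjusted p = 0.0489). For both genes the groups did not overlap. Leaving out LEADR-KD 1 or Scramble 2 or 3 ended the call for *PSMC3* (adjusted p = 0.0594, 0.0765 and 0.0751). For *PSMC1* the call was lost without LEADR-KD 1 or 3 (0.136 and 0.107) and without Scramble 2 or 3 (0.128 and 0.163). *PSMC4* was the most abundant ATPase and *PSMC6* the least, and *PSMC6* had the smallest log2 fold change, 0.05.

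None of the 11 non-ATPase genes passed the test, with log2 fold changes of -0.09 (*PSMD4*, a ubiquitin receptor) to 0.18 (*PSMD3*, a scaffold subunit). *PSMD2*, a scaffold that docks ubiquitin shuttles and the most abundant of them, had 106, 93.6 and 94.7 FPKM in LEADR-KD and 85.3, 87.2 and 84.9 FPKM in Scramble (log2 fold change 0.18, adjusted p = 0.152), with no overlap of the groups. Its span shares 10346 bases with *EIF2B5* on the same strand, so its level is less certain. *PSMD6* was the least abundant, with 13.0, 12.6 and 12.9 FPKM in LEADR-KD and 13.4, 13.5 and 11.9 FPKM in Scramble. The chaperones of the base, *PSMD5*, *PSMD9* and *PSMD10*, had log2 fold changes of 0.17, -0.18 and -0.06 and did not pass either. Summed over the 31 constitutive subunits of core and regulatory particle, the level was 1807, 1717 and 1857 FPKM in LEADR-KD and 1642, 1661 and 1712 FPKM in Scramble. The difference was small, and LEADR-KD 2 lay barely above Scramble 3. That order depends on the size factors behind FPKM, and the sum was not read under TMM scaling.

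The other activators went in opposite directions. *PSME4*, which encodes PA200, a nuclear cap of the core particle, had 16.3, 12.6 and 12.5 FPKM in LEADR-KD and 23.1, 18.5 and 19.6 FPKM in Scramble. All LEADR-KD libraries were below all Scramble libraries. *PSME4* was lower with a log2 fold change of -0.58 (SE 0.12, adjusted p = 0.00432), a fold of 0.671, and the call held in each alternative tried. *PSME3*, which encodes the nuclear cap PA28 gamma, had 76.8, 74.8 and 79.4 FPKM in LEADR-KD and 64.7, 65.2 and 65.2 FPKM in Scramble. The groups were well apart, though the change was small, with a log2 fold change of 0.23 (SE 0.08, adjusted p = 0.0423). It did not pass without any one of the 6 libraries (adjusted p = 0.0690 to 0.131). *PSME3* shares 8966 bases with *BECN1* on the opposite strand, and *BECN1* was lower in LEADR-KD (log2 fold change -0.96).

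*PSMF1* encodes PI31, a protein that inhibits the core particle in the test tube. It had 43.3, 36.8 and 38.2 FPKM in LEADR-KD and 35.5, 32.5 and 30.1 FPKM in Scramble. The groups did not overlap, but the log2 fold change of 0.26 fell just short of the threshold (adjusted p = 0.0595).

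The largest change of any member was in *PSMG1*, which pairs with *PSMG2* as a chaperone that builds the alpha ring. *PSMG1* had 17.2, 19.6 and 22.7 FPKM in LEADR-KD and 9.81, 9.07 and 8.38 FPKM in Scramble. Its lowest LEADR-KD library was far above its highest Scramble library. The log2 fold change was 1.12 (SE 0.12, 95% interval 0.84 to 1.39, adjusted p = 8.44e-05), a fold of 2.17. Leaving out any library kept it between 1.01 and 1.21.

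*PSMG2*, its partner, had 27.7, 24.5 and 27.0 FPKM in LEADR-KD and 20.6, 23.9 and 22.0 FPKM in Scramble. The groups did not overlap, and the log2 fold change of 0.24 (95% interval 0.04 to 0.44) did not pass the test (adjusted p = 0.0808). *PSMG3* and *PSMG4*, the second chaperone pair, had log2 fold changes of 0.13 and -0.12 with overlapping groups (adjusted p = 0.638 and 0.571). The partners therefore differed in size of change, a difference that was not tested.

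**Figure D4:**
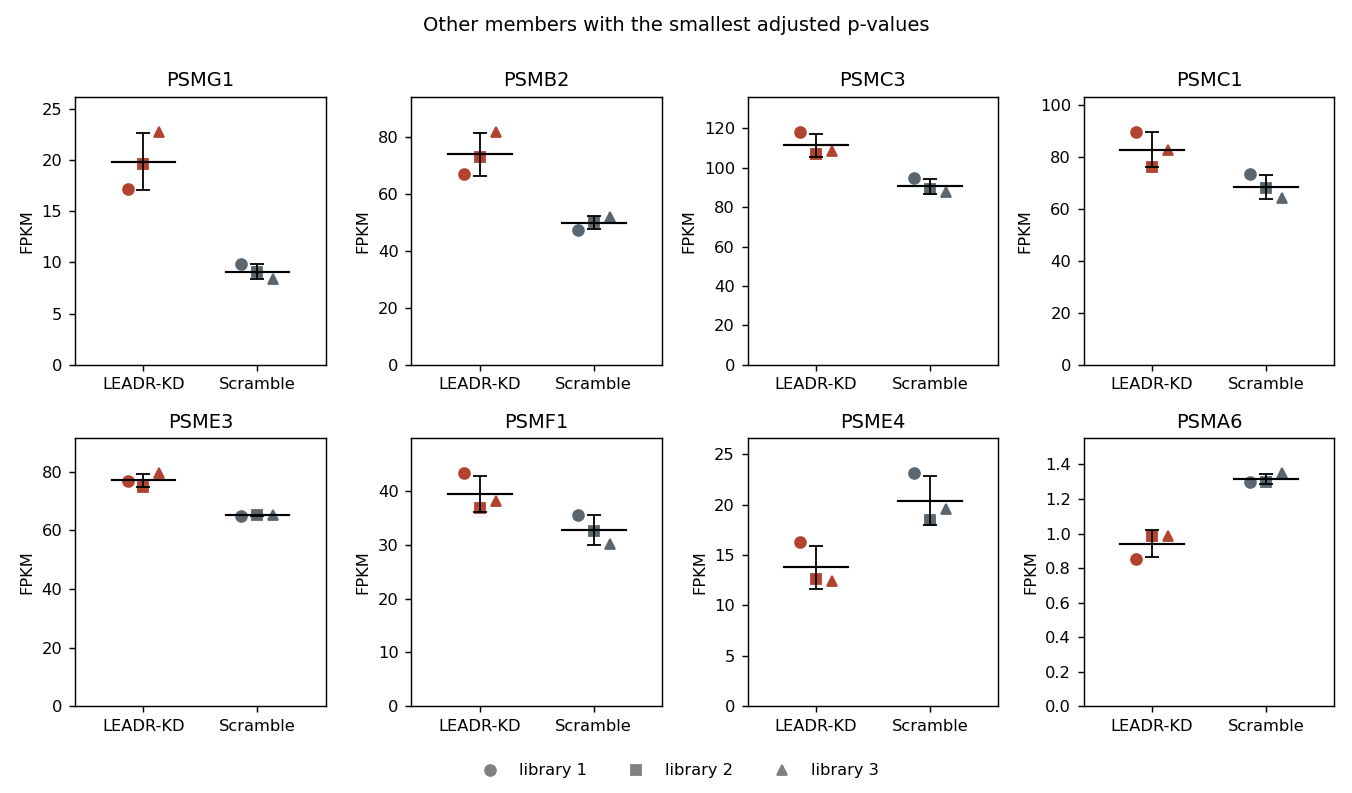
FPKM in each library (points, shaped by library number) of the 8 members outside the catalytic and PA28 genes with the smallest adjusted p-values, with group mean (line) and SD (bar), LEADR-KD left of Scramble; axes start at 0. *PSMG1* and *PSMB2* have the highest log2 fold changes of these genes (1.12 and 0.56) and *PSME4* the lowest (-0.58), and *PSMF1* did not pass the test (adjusted p = 0.0595).

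Sites for the siRNA were sought in the 3′ UTRs of the members, since a short RNA can lower transcripts that pair with its seed. For the strand as listed, a match of at least 7 bases (ACCCAGT, or CCCAGTA) occurred in 6 of 45 tested members with an annotated 3′ UTR (13.3%), against 17.7% of 12092 genes. The 6 were *PSMA4*, *PSMB2*, *PSMB7*, *PSME3*, *PSME4* and *PSMF1*. *PSME4* and *PSMA4* held the 8-base form ACCCAGTA. The sites of the lower and the higher members with the most stable calls are printed side by side (GRCh37, GENCODE transcripts, match in capitals):
*PSME4*, chr2:54092423-54092452, minus strand: agaaataattACCCAGTAtgatcatggcat
*PSMB7*, chr9:127115805-127115834, minus strand: agcattgaggCCCAGTAagacactcatgtg
*PSMB2*, chr1:36066614-36066643, minus strand: ctgacgccctACCCAGTggagtgctgctac

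The lower members *PSME4* and *PSMB7* thus held a match, and so did the higher members *PSMB2* and *PSME3*, whereas *PSMB5*, *PSMA6*, *PSMG1* and *PSMB9* held none. The sites of *PSME4*, *PSMB7* and *PSME3* lie inside the spans of their counted rows. That of *PSMB2* lies past the 3′ end of its counted row (chr1:36067185-36107445), in a longer 3′ UTR of the GENCODE transcript. The same holds for *PSMA4*. Whether RT4 cells make these longer ends was not tested. Over all genes, 25.0% of those with a match were lower and 10.5% higher, while 10.4% of those without one were lower and 14.8% higher. Genes with a match had longer 3′ UTRs, with a median of 3031 bases against 1094 bases. For the complement, which pairs with *MIR205HG*, 14.8% of genes with a match were lower and 17.2% higher, against 12.7% and 13.5% of those without. Among tested members only *PSMB2* and *PSMD4* held such a match, and that of *PSMB2* again lies outside its counted row. The part of these matches in the results for *PSME4* and *PSMB7* was not tested.

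Genes that work with the proteasome outside the naming rule were read in 5 lists, whose counts stand beside 12.2% higher and 12.1% lower among all genes tested. Of 17 associated and assembly factors, 5 were higher and 2 lower. The deubiquitinase gene *UCHL5* had 14.7, 11.2 and 13.1 FPKM in LEADR-KD and 9.02, 9.31 and 8.12 FPKM in Scramble (log2 fold change 0.55, adjusted p = 0.00330). The proteasome phosphatase gene *UBLCP1*, the adaptor gene *KIAA0368* and the shuttle gene *RAD23B* were also higher, by log2 fold changes of 0.47, 0.35 and 0.34. The call for *KIAA0368* was lost without LEADR-KD 1 or 2 (adjusted p = 0.0996 and 0.0613) or Scramble 2 or 3 (0.119 and 0.0895). *ZFAND5* and the shuttle gene *UBQLN2* were lower (-0.40 and -0.39). *POMP*, which chaperones the beta ring and was singled out after its values were seen, was the other higher gene, with 89.2, 73.2 and 84.7 FPKM in LEADR-KD and 63.6, 67.2 and 65.1 FPKM in Scramble (log2 fold change 0.33, adjusted p = 0.0209). Its call was not followed through the alternatives.

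Of 9 genes listed as regulators of subunit transcription, 3 were lower and 1 higher, with a median log2 fold change of -0.21. Beside *NFE2L1* and *NFE2L2*, that list held genes of protein processing and clearance, such as *VCP* and *SEL1L*. Its count and median are therefore not those of transcription factors alone. *NFE2L1*, whose product NRF1 drives proteasome genes when the proteasome is short, had 32.5, 36.4 and 33.6 FPKM in LEADR-KD and 40.3, 43.2 and 39.9 FPKM in Scramble (log2 fold change -0.28, adjusted p = 0.0271). *NFE2L2*, which encodes NRF2 of the oxidative stress response, had 23.6, 23.1 and 25.5 FPKM in LEADR-KD and 34.3, 41.7 and 40.5 FPKM in Scramble (log2 fold change -0.70, adjusted p = 0.000263). In both genes every LEADR-KD library was below every Scramble library. The call for *NFE2L2* held in all 16 alternatives, while that for *NFE2L1* was lost without LEADR-KD 1 or 3 (adjusted p = 0.0792 and 0.0864) or Scramble 2 or 3 (0.105 and 0.0503). *SEL1L*, of the pathway that clears proteins from the endoplasmic reticulum, was lower (-0.57) and *UFD1L*, a cofactor of the *VCP* segregase, higher (0.31). *UFD1L* lost its call without LEADR-KD 1 or 3 or Scramble 2 or 3 (adjusted p = 0.0674 to 0.132).

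Along the interferon route to the induced subunits, 2 of 14 tested genes were higher and 1 lower, and *IRF8* had 0 counts. The kinase gene *JAK2* had 1.45, 1.14 and 1.06 FPKM in LEADR-KD and 0.702, 0.654 and 0.574 FPKM in Scramble, and was higher in every LEADR-KD library (log2 fold change 0.90, adjusted p = 0.00740). The receptor gene *IFNAR1* was lower (-0.39), but not without LEADR-KD 2 (adjusted p = 0.0543). *IRF1*, which drives the induced subunits directly, had a log2 fold change of 0.15 and did not pass the test (adjusted p = 0.452).

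Downstream of the proteasome, 6 of 15 genes of the peptide path were higher and none lower at an adjusted p under 0.05, with a median log2 fold change of 0.31. *HLA-B* had 31.8, 37.5 and 50.6 FPKM in LEADR-KD and 15.3, 13.5 and 25.3 FPKM in Scramble (log2 fold change 1.14, adjusted p = 0.00309). *HLA-C*, the chaperone gene *CANX* and the trimming enzyme gene *ERAP2* were higher by 0.75, 0.45 and 0.33. The call for *ERAP2* was lost without LEADR-KD 1 or 3 (adjusted p = 0.0580 and 0.107) or Scramble 2 or 3 (0.119 and 0.0610), and that for *CANX* without Scramble 2 or 3 (0.0573 and 0.0516). HLA genes resemble each other closely, and the counting could have split their reads. *TAP1*, the neighbour of *PSMB9*, did not pass (log2 fold change 0.31, adjusted p = 0.135). Of 11 ubiquitin and *ISG15* genes, *HERC5* and *UBE2L6*, the ligase and the conjugating enzyme of *ISG15*, were higher (1.75 and 1.08). *HERC5* was low, with means of 1.49 FPKM in LEADR-KD and 0.440 FPKM in Scramble. *ISG15* itself (log2 fold change 0.63, adjusted p = 0.265) and *UBA7* (-0.06, adjusted p = 0.788) did not pass the test. Nor did the ubiquitin genes *UBB* and *RPS27A*.

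The calls of the members differed in how well they stood other settings. *PSMG1*, *PSMB2*, *PSMB7* and *PSME4* passed in all 16 alternatives tried, whereas *PSMC3* passed in 12, *PSMB9* in 10, *PSMB5* and *PSMC1* in 8, *PSME3* in 7 and *PSMA6* in 3.

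**Figure D5:**
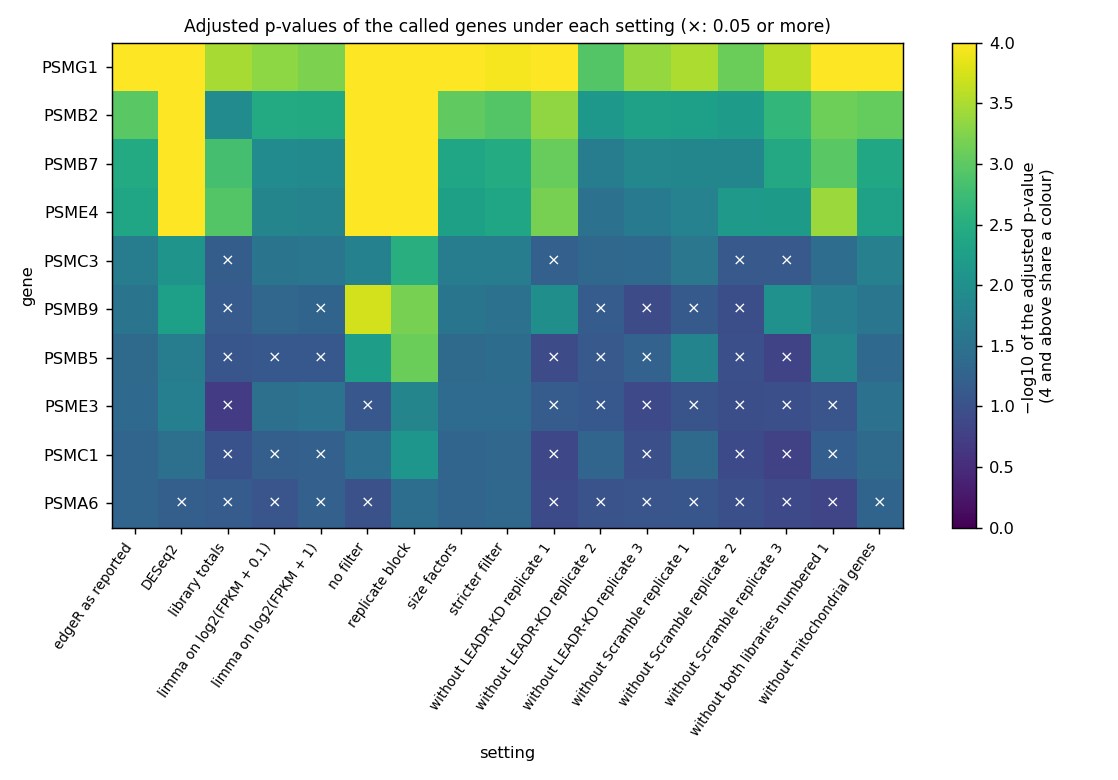
Adjusted p-values of the 10 called members (rows, smallest at the top) under each setting (columns), as −log10 in colour, with a cross where the value was 0.05 or more. The rows of *PSMG1*, *PSMB2*, *PSMB7* and *PSME4* hold no cross, and the row of *PSMA6* holds 13.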

How the data were processed

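RNA of RT4 cells was measured in 3 LEADR-KD and 3 Scramble libraries. The authors deposited raw counts per gene and FPKM values. The submitters' processing notes name HISAT2 2.0.5, featureCounts 1.5.0-p3, DESeq2 1.20.0 and the build hg19, while the methods name Salmon, so the counter and its strand setting are not settled here. In each library the deposited FPKM equalled the count divided by gene length and a constant proportional to DESeq2's size factor, so FPKM values were compared across libraries. Gene length is the union of annotated exons, which lowers the FPKM of genes with long rare exons. A deposited table with the authors' own fold changes and p-values was not used.

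Counts were tested with edgeR 4.0.16 in R 4.3.3 (TMM factors, filterByExpr with a minimum count of 10, quasi-likelihood test over all 6 libraries, Benjamini-Hochberg adjustment over the 14178 genes tested), and genes at an adjusted p under 0.05 were called. A step on simulated counts was run first. Totals of 15706033 to 18960822 counts and a biological coefficient of variation of 12.6% set the precision. No pair of libraries agreed within sampling noise, so none was treated as a duplicate. Alternatives were DESeq2 1.42.0, size factors, library totals, other filters, limma 3.58.1 on log2(FPKM + 1) and log2(FPKM + 0.1), a replicate block and left-out libraries. Ratios of FPKM were compared by exact permutation (scipy 1.17.1).

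Members and lists were chosen with earlier results of these data known. The text names the induced and constitutive catalytic subunits, the PA28 and other activators, *PSMF1*, the PSMG genes, every called member, the extremes in fold change and level of each class, and up to 4 called genes in each direction of each companion list. Promoters came from RefSeq (GRCh38.p14) and 3′ UTRs from 1 GENCODE transcript per gene, the canonical one where marked (GRCh37). Motifs were matched by letters only. Some genes of the companion and marker lists are counted but not reported by name here.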

Additional observations from a re-analysis of the deposited data

How the results depend on the processing

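With library totals in place of TMM, 2 members were higher and 2 lower (7.65% and 10.95% of all genes); limma on log2(FPKM + 1) and on log2(FPKM + 0.1) gave 2 lower each (10.5% and 10.4%). Leaving out single libraries gave 2 to 5 higher and 2 to 3 lower, while the shares of all genes were 8.23% to 9.99% and 7.91% to 10.1%, against 12.2% and 12.1% with all 6. *PSMG1*, *PSMB2*, *PSMB7* and *PSME4* kept their calls in every alternative. With 1 library left out, the differences in log2 ratio, LEADR-KD minus Scramble, stayed at 0.35 to 0.57 (*PSMB8*/*PSMB5*), 0.54 to 0.85 (*PSMB9*/*PSMB6*) and 0.29 to 0.45 (*PSMB10*/*PSMB7*). Of *PSMB9*, *PSMB5*, *PSMC1*, *PSMC3*, *PSME3* and *PSMA6*, none passed with library totals. *PSMF1* passed with DESeq2 (adjusted p = 0.0499), with no filter (0.0407) and without Scramble 1 (0.0388).

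With the replicate block, 9 members were higher and 4 lower (17.6% and 16.7% of all genes), *PSMF1*, *PSMG2* and *PSMD3* being added (adjusted p = 0.00711, 0.0339 and 0.0434). Deviations of same-numbered libraries correlated at 0.227, 0.001 and 0.266. LEADR-KD 1 with Scramble 3 gave -0.296, LEADR-KD 3 with Scramble 1 gave -0.196, and LEADR-KD 2 with Scramble 3 gave 0.075. Whether the numbers pair the samples was not settled, and the main test used no block.

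Signs turned only in members that did not pass the test. Leave-one-out log2 fold changes ran over -0.0091 to 0.22 (*PSME2*), -0.077 to 0.015 (*PSMB6*), -0.032 to 0.33 (*PSMG3*), -0.0043 to 0.12 (*PSMC6*), -0.051 to 0.29 (*PSMA2*), -0.16 to 0.019 (*PSMD10*), -0.069 to 0.015 (*PSMD6*) and -0.029 to 0.095 (*PSMB4*). Without both libraries numbered 1, *PSMC6* had -0.0014 and *PSMA2* -0.044, and with library totals *PSMB4* had -0.018. Of the named companion genes, *NFE2L1*, *UFD1L*, *KIAA0368*, *ERAP2*, *CANX* and *IFNAR1* passed in 10, 8, 10, 10, 14 and 15 of 16 alternatives. The cause was not tested.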
